A study of Homo sapiens with 6 samples.

Results

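The TRIM genes encode a family of proteins that tag other proteins with ubiquitin, and they are described here in MCF10CA1a cells, a malignant line of the MCF10A human breast epithelial lineage, on soft and stiff gels. Members were taken by symbol, as every gene called TRIM followed by a number and at most one letter, which gave 72 of the 26484 symbols in the count tables. TRIM31 was set against the other 71 because its own counts differed between the gels in these same libraries. It was thus selected on the comparison described here, so its difference is given as a description and supports nothing further. The soft group was grown on 500 Pa gels and the stiff group on 8000 Pa gels, with 3 libraries each (replicates 1 to 3). Both groups were the same line on gel dishes carrying growth factor-reduced Matrigel at 0.14 mg/ml, in medium with horse serum, penicillin/streptomycin and fungizone. RNA, labelled cytosolic, was taken on day 5 after a medium change on day 4. A single cell line was used, and the labels call the triplicates biological, so the p-values concern samples of this line. In the fit with the replicate number as a block, they rest on a spread trend shared by all genes, not on each gene's own spread.

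A TRIM protein is named for its tripartite front end, a RING finger, B-box zinc fingers and a coiled coil. The RING recruits an E2 enzyme carrying ubiquitin, the B-boxes and coiled coil bring TRIM chains together, and a variable C-terminus picks the substrate. Many members act in innate immunity, where TRIM25 modifies the RNA sensor RIG-I (DDX58) and TRIM31 modifies its adaptor MAVS and the inflammasome sensor NLRP3. Others control chromatin (TRIM28), cell structure (TRIM32) or, without any RING, epithelial programmes (TRIM29).

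Depth and identity were checked first. Library totals lay between 8305601 and 18779742 counts, and 3 counts corresponded to 0.168 to 0.429 CPM (each gene's share of its library, TMM-scaled). On the first principal component (49.1% of variance), 8000 Pa replicate 1 sat at the negative end, at -62.3. Replicate 3 sat at the positive end in both groups, at 47.8 on soft and 35.4 on stiff gels. The remaining libraries lay between -11.8 and -2.75. Epithelial markers matched the label, with KRT8 at 11200 ± 3610 CPM on soft and 9060 ± 3220 on stiff gels (SD, n = 3 each), and EPCAM at 220 ± 85.8 and 252 ± 88.9. Of 5 leukocyte genes, PTPRC, CD3E and MS4A1 had 0 counts in all 6 libraries, while the monocyte and macrophage genes CD14 and CD68 had 72 to 203 and 124 to 329 counts. The summed level of the 5 was 21.9 to 47.0 CPM on soft and 19.8 to 42.8 CPM on stiff gels.

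Many members were not detected in these cells. Of the 72 members, 26 had 0 counts in every library, 9 had a few counts and 37 had enough to test. The filter for testing asked for about 10 counts in at least 3 libraries. The share with any count, 63.9%, was close to the 63.8% of all listed symbols, and 51.4% of members against 43.5% of all symbols could be tested. Members at 0 included TRIM63 and TRIM55, which act in muscle sarcomeres, the muscle membrane-repair gene TRIM72, and the stem cell regulator TRIM71. The TRIM43, TRIM48, TRIM49, TRIM51, TRIM64, TRIM73 and TRIM74 groups are recent near-identical copies. Reads that fit several copies may not have been counted, so their 0 counts, and the 2 counts of TRIM43, are uncertain. Of the 9 low members, TRIM36 had the most, 48 counts over the 6 libraries, and TRIM69, an interferon-inducible member, had 1. Together the 72 genes took 0.172% ± 0.0159 of counts on soft and 0.162% ± 0.00972 on stiff gels. TRIM29 alone made up 31.1% to 50.8% of the family's counts.

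TRIM31 (ENSG00000204616.10 in GENCODE 29, a RING ligase best known from gut epithelium, with no C-terminal substrate domain) lies on the minus strand of chromosome 6 from 30102897 to 30113106 (GRCh38). On soft gels replicates 1 to 3 held 19, 13 and 19 raw counts, and on stiff gels 84, 86 and 65. In CPM these were 1.06, 1.45 and 2.72 on soft gels and 6.71, 9.09 and 6.48 on stiff gels. All 3 stiff libraries lay above all 3 soft ones, with means of 7.43 ± 1.44 and 1.74 ± 0.864 CPM. The antisense gene TRIM31-AS1, which overlaps it, was listed at 0 counts throughout. Strandedness is not known, so this 0 does not show which strand the TRIM31 reads came from.

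**Figure D1:**
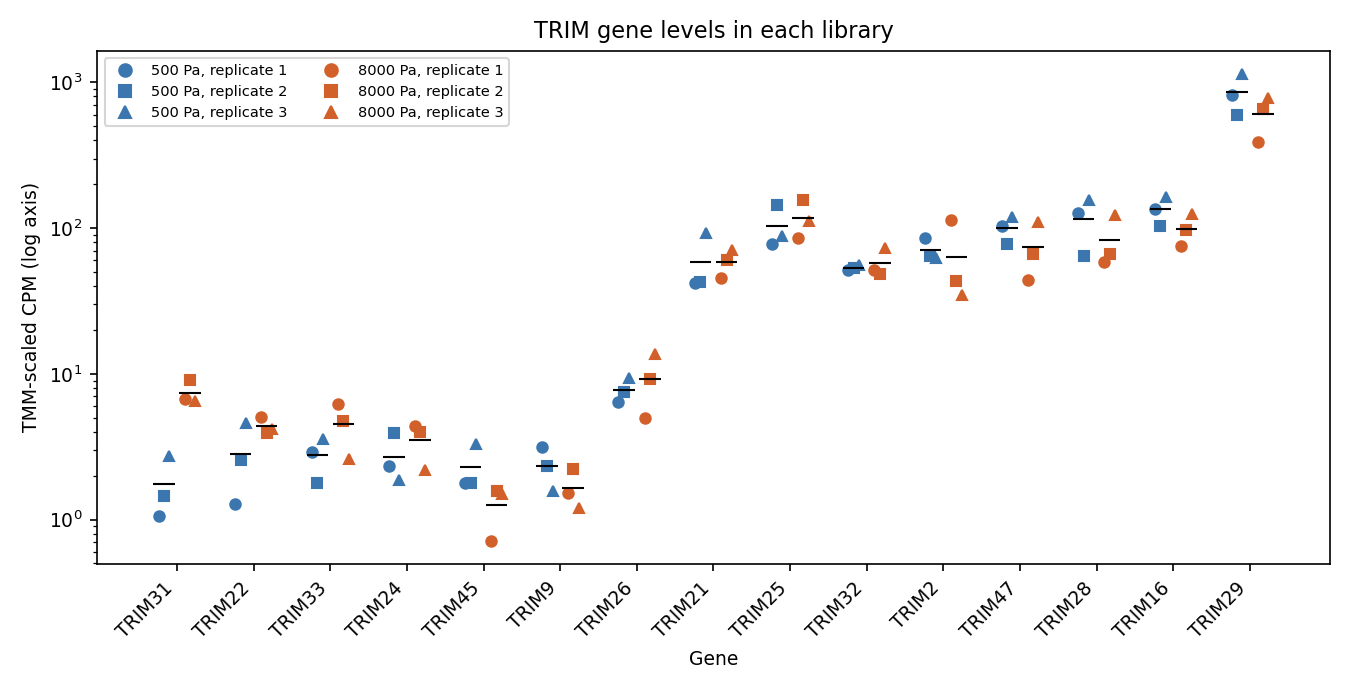
CPM (TMM-scaled, log axis) of 15 TRIM genes in each library, with blue points for 500 Pa, orange for 8000 Pa, a symbol for each replicate number and a bar at each group mean. For TRIM31 the 3 stiff libraries, at 6.48 to 9.09, lie above the soft ones, at 1.06 to 2.72, while for most other genes the groups overlap.

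The promoters of TRIM31 and of TRIM26, its tested neighbour in the family, are shown with that of the interferon-inducible TRIM14 for comparison. Each is the 250 bases before the start in RefSeq (GRCh38.p14), written along the gene, all on the minus strand. TRIM31 is chr6:30113091-30113340, TRIM26 is chr6:30213407-30213656 and TRIM14 is chr9:98119223-98119472. Capitals mark matches to the interferon-stimulated response element searched as GAAANNGAAA on both strands, and overlapping matches run together.
TRIM31: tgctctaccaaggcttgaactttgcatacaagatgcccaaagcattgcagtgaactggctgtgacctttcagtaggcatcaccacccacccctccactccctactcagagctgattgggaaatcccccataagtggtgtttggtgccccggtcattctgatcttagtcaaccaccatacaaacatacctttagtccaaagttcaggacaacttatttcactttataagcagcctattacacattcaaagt
TRIM26: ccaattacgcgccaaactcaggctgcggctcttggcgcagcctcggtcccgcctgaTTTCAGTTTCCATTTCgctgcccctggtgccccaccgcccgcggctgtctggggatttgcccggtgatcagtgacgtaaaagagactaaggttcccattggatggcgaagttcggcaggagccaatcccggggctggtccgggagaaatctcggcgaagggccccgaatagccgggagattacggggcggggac
TRIM14: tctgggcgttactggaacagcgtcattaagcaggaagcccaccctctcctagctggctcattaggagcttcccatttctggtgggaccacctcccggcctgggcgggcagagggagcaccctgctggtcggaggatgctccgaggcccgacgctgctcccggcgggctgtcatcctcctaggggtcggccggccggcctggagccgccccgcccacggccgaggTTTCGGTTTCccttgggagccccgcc

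The motifs searched in these windows were 4: the response element above, the TEAD site GGAATG, the AP-1 site TGANTCA and the CArG box of SRF, each on both strands. TRIM31 held none of the 4, which says only that these letters are not in this window. Promoters were found for 56 of the 72 members. The response element was in 9 of the 56 and in 3.07% of all 27305 promoters. The 9 were TRIM2, TRIM5, TRIM14, TRIM16, TRIM26, TRIM34, TRIM44, TRIM64C and TRIM69. The interferon-inducible TRIM21, TRIM25, TRIM38 and TRIM56 held no match. TEAD letters were in 14 of the 56 and 11.9% of all, AP-1 letters in 6 of the 56 and 6.60% of all, and the CArG box in 0 of the 56 and 1.14% of all. Copies such as TRIM64 and TRIM64B share sequence, so these counts are not of independent promoters.

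The fitted log2 fold change of TRIM31 (8000 Pa over 500 Pa) was 2.14 (SE 0.47), a 4.4-fold difference. In the unpaired edgeR quasi-likelihood fit its p was 5.71e-04 and its adjusted p was 1 (rounded), because few genes in the whole table had small p-values. With the replicate number as a block, so that each stiff library is set against the soft library of the same number, the value was 2.18 (SE 0.44, adjusted p = 5.26e-04 by edgeR). These are the values that singled it out. By pair, the log2 CPM difference was 2.47, 2.50 and 1.20, so pair 3 showed the smallest. Unpaired DESeq2 also called it (adjusted p = 0.0293), among 7 genes called in all, and limma-voom did not (adjusted p = 0.912). The blocked call was lost without pair 2 (adjusted p = 0.0651, log2 fold change 1.96).

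Among all 11517 tested genes, 8 had a log2 fold change as high as that of TRIM31, itself included, and 13 were as large in either direction. Of 5 endothelial markers 3 were tested, and 2, PECAM1 and CDH5, passed as higher on stiff gels in the blocked fit. The other tested marker, ESAM, had 5.98 ± 1.68 CPM on soft and 6.14 ± 2.09 CPM on stiff gels. The summed level of the 5 was 100 to 156 CPM on soft and 213 to 258 CPM on stiff gels. Most of it was PECAM1, at 111 ± 30.4 and 219 ± 19.7 CPM. CDH5 had 2.58 ± 1.27 CPM on soft and 10.4 ± 5.72 CPM on stiff gels. The untested markers VWF and KDR had at most 4 counts in any library. The part of the 5 endothelial markers in the TRIM31 result was not tested.

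Per kilobase of exon, TRIM31 stood at 0.493 ± 0.244 RPKM on soft gels and 2.1 ± 0.408 RPKM on stiff gels. That is rank 28 of the 37 tested members on soft and rank 18 on stiff gels. It thus passed from the low end of the expressed family to its middle.

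Setting TRIM31 against the family within each library takes out the scaling between libraries. Its log2 CPM minus the median of the other 36 tested members was -3.12, -2.82 and -2.18 in the soft libraries. In the stiff libraries the same difference was -0.87, -0.63 and -0.93. The groups did not overlap, and the mean difference between them was 1.90 on the log2 scale. The family median itself moved little, from 3.56 ± 0.14 to 3.72 ± 0.11 log2 CPM.

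**Figure D2:**
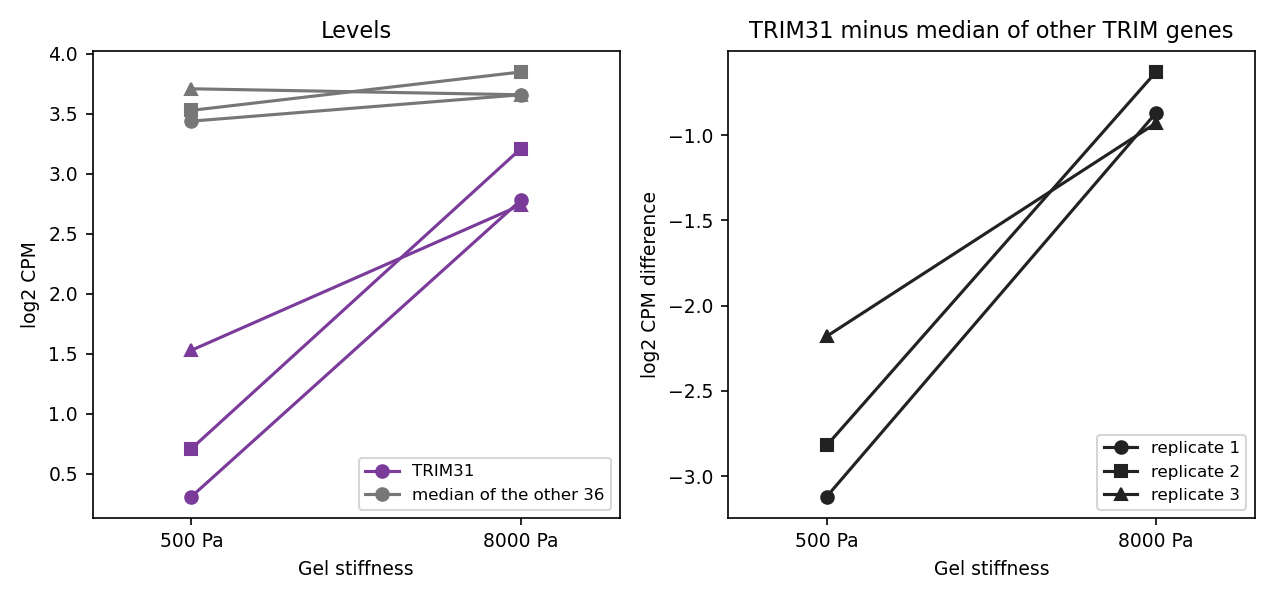
Left, log2 CPM of TRIM31 (purple) and of the median of the other 36 tested TRIM genes (grey) on 500 Pa and 8000 Pa gels, with lines joining same-numbered replicates. Right, the difference between them, which lies at -3.12 to -2.18 on soft gels and -0.93 to -0.63 on stiff gels.

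None of the other 36 tested members passed in either fit. In the unpaired fit 0 of 37 members were called, as were 0% of all tested genes. In the blocked fit 1 of 37, TRIM31, was called, against 0.530% of all tested genes in either direction and 0.260% as higher. At an unadjusted p under 0.05 there was 1 member unpaired, TRIM31, beside 2.45% of all genes. With the block there were 4, TRIM31, TRIM28, TRIM29 and TRIM47, beside 10.6% of all genes. The lowest adjusted p among the other 36 was 0.389 (edgeR with the block, for TRIM47). Their log2 fold changes ran from -0.84 to 0.72 with a median of 0.08, beside 0.01 over all tested genes, and 22 of 36 lay above 0, beside 51.2% of all genes. The median was -0.01 with GC and length offsets plus the block, and -0.05 without 8000 Pa replicate 3, so it has no stable direction. All 36 differed by less than 2-fold, as did 97.9% of all genes.

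**Figure D3:**
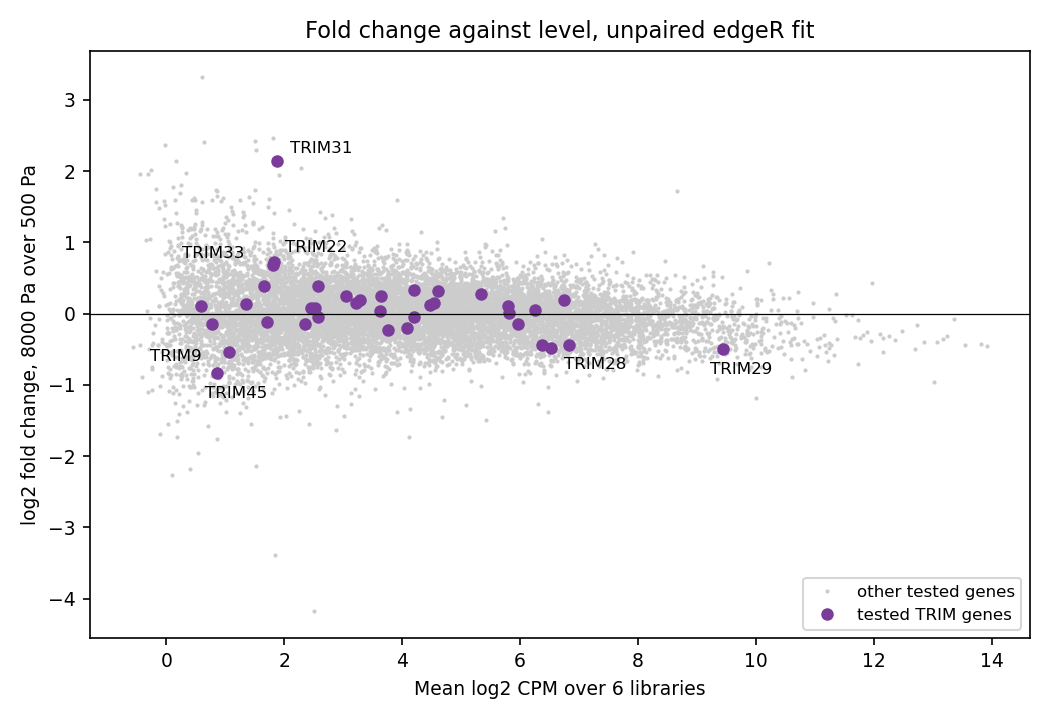
Fold change (log2, 8000 Pa over 500 Pa, unpaired edgeR) against mean log2 CPM for all 11517 tested genes (grey) and the 37 tested TRIM genes (purple). TRIM31 stands at 2.14, and the other 36 members lie between -0.84 and 0.72.

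Apart from TRIM31, 1 tested member had groups that did not overlap. This was TRIM45, a RING ligase with a filamin-type domain, at 1.79, 1.79 and 3.29 CPM on soft gels and 0.719, 1.58 and 1.5 CPM on stiff gels. It was the lowest fold change of the family (log2 -0.84, SE 0.54, adjusted p = 0.631 with the block by edgeR), and its libraries held only 9 to 32 counts. Over all tested genes 4.02% were higher and 2.85% lower without overlap, so 1 of 37 each way is close to the background. Beside TRIM31, 5 members were higher on stiff gels in all 3 pairs (TRIM14, TRIM24, TRIM25, TRIM38 and TRIM62) and 5 were lower (TRIM9, TRIM13, TRIM16, TRIM45 and TRIM47). The shares over all tested genes were 14.6% and 15.2%.

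The most abundant members per length were TRIM29, TRIM21, TRIM47, TRIM28, TRIM16, TRIM16L, TRIM32 and TRIM25. TRIM29, a RING-less protein abundant in basal and squamous epithelia, led at 71.4 ± 24.7 RPKM (SD, n = 6). The next were TRIM21, the cytosolic antibody receptor, at 30.5 ± 10.3 RPKM, and TRIM47 at 27.8 ± 9.35 RPKM. TRIM28 had 24.7 ± 10.3 and TRIM16 20.7 ± 5.65 RPKM. From TRIM21 to TRIM16 neighbours in this order differed by less than their SDs, whereas the lowest TRIM29 library, at 38.1 RPKM, was above the mean of TRIM21.

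Of the 6 RING-less members 4 lay above 0 and 2 below, and 0 passed. TRIM29 had 822, 595 and 1140 CPM on soft gels and 389, 654 and 778 CPM on stiff gels. The ranges overlapped (log2 fold change -0.49, SE 0.32, adjusted p = 0.439 with the block by edgeR). The lowest value belonged to 8000 Pa replicate 1, the library at the negative end of the first principal component. TRIM16, which acts in the response to damaged lysosomes, had 136, 103 and 164 CPM on soft gels against 74.8, 96.9 and 125 CPM on stiff gels. Its partial copy TRIM16L showed almost equal levels, 75.6 ± 15.1 and 78.0 ± 14.4 CPM. These genes are near-identical over long stretches, so the split of reads between them is uncertain. TRIM14, an adaptor at MAVS, had 16.7 ± 4.58 and 21.0 ± 5.88 CPM. Its span overlaps NANS on the opposite strand, with 16767 counts beside 1167 for TRIM14.

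The PHD and bromodomain members gave no call: 2 of 3 lay above 0, 1 below, and 0 passed. TRIM28 (KAP1), the corepressor that KRAB zinc finger proteins bring to chromatin, had 127, 64.6 and 156 CPM on soft gels and 58.6, 66.7 and 123 CPM on stiff gels. In both groups replicate 3 was the highest, and the groups overlapped (log2 fold change -0.49, SE 0.37, adjusted p = 0.447 with the block by edgeR). TRIM33, a regulator of SMAD4 signalling, had a log2 fold change of 0.72 (SE 0.48) in the unpaired fit and 0.71 (SE 0.45, adjusted p = 0.630 by edgeR) with the block. Its values were 2.91, 1.79 and 3.57 CPM on soft gels and 6.23, 4.75 and 2.59 CPM on stiff gels, so pair 3 went the other way. TRIM24, a nuclear receptor cofactor, had 2.71 ± 1.07 and 3.53 ± 1.18 CPM.

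The partners of TRIM28 in silencing were listed under 13 symbols, of which 12 were in the count tables. All 12 were tested and 0 passed. Their median log2 fold change was 0.19, with 9 above 0 and 3 below. The remodeller CHD3 had 29.2, 40.8 and 26.9 CPM on soft and 47.4, 47.1 and 59.1 CPM on stiff gels, without overlap (adjusted p = 0.228 with the block by edgeR). The histone methyltransferase SETDB1 had 28.3 ± 0.945 and 24.6 ± 2.18 CPM, also without overlap, and lower on stiff gels. Its adjusted p was 0.864 (edgeR with the block).

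Of 9 interferon-inducible members 7 were tested, 6 lay above 0 and 1 below, and 0 passed (median 0.19). TRIM22, an antiviral nuclear ligase, had 1.29, 2.57 and 4.57 CPM on soft gels and 5.03, 3.91 and 4.19 CPM on stiff gels. The soft libraries spread widely and the highest of them fell inside the stiff range (log2 fold change 0.69, SE 0.50). TRIM22 lies within the span of TRIM5 on the opposite strand, and strandedness is not known, so reads from any stretch that both cover are of uncertain origin. In all, 17 of the 37 tested members overlap the span of another listed gene, among them TRIM13, TRIM25, TRIM32, TRIM37 and TRIM59 on the opposite strand, and shared exons were not measured. TRIM21 had 58.7 ± 28.7 and 58.9 ± 13.0 CPM, and soft replicate 3, at 91.9 CPM, stood above the other 5 libraries. Leaving that library out moved its log2 fold change from 0.01 to 0.53, and it did not pass. TRIM25 had 103 ± 35.1 and 118 ± 35.3 CPM, and TRIM38 37 ± 2.89 and 44.8 ± 8.85 CPM.

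Interferon response genes outside the family gave the background for these members. Of 18 listed, 17 were tested, with a median of 0.12, and 12 lay above 0. By pair their median log2 CPM difference was 0.15, 0.55 and -0.67, so pair 3 went the other way. The summed level of the 18 was 1600 to 5790 CPM on soft and 1920 to 3670 CPM on stiff gels. Only IFI27, a mitochondrial interferon-induced protein, passed among the 17 tested (blocked edgeR), in the lower direction. It had 15.5, 12.5 and 5.72 CPM on soft gels and 0.879, 0.845 and 1.5 CPM on stiff gels (adjusted p = 3.62e-10 by edgeR with the block). OAS2, an RNA-sensing synthetase, had 17, 47.8 and 108 CPM on soft gels and 49.6, 98.8 and 92.2 CPM on stiff gels, with overlap.

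The sensing pathway that TRIM31 and TRIM25 act on was transcribed but had 0 called genes. Of 17 listed genes 15 were tested, 7 above 0 and 8 below, with a median of -0.05. The TRIM31 substrate MAVS had 107 ± 5.69 and 117 ± 29.4 CPM, and the sensor RIG-I (DDX58) 27.0 ± 6.79 and 33.0 ± 11.4 CPM. NLRP3, the other TRIM31 substrate named above, and its adaptor PYCARD had 0 counts in all 6 libraries. TICAM1, an adaptor of innate immune sensing, was lower on stiff gels without overlap, at 16.9, 16.1 and 20.3 against 5.75, 10.6 and 13.4 CPM (adjusted p = 0.162 with the block by edgeR). The kinases TBK1 and IKBKE had 13.6 ± 8.61 and 22.4 ± 8.85 CPM on stiff gels, beside 10.9 ± 3.22 and 23.4 ± 6.36 on soft.

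Of the class with a SPRY domain and a RING, 15 of 31 listed in the tables were tested, 10 above 0 and 5 below, with 0 called. TRIM47, a ligase of this class, had 104, 77.8 and 120 CPM on soft and 44.4, 66.5 and 111 CPM on stiff gels. TRIM62, a regulator of mammary epithelial polarity, had 5.21 ± 1.39 and 6.78 ± 2.21 CPM. Of the NHL-repeat class, TRIM32, a ligase with roles in muscle and actin turnover, was among the steadiest, at 48.6 to 73.3 CPM over the 6 libraries. TRIM2, which targets neurofilament, had 85.6, 64.7 and 61.9 CPM on soft and 113, 43.7 and 34.7 CPM on stiff gels. Leaving out 8000 Pa replicate 1 moved its log2 fold change from -0.15 to -0.85, and it still did not pass (adjusted p = 1 by edgeR). TRIM3 had 9.42 ± 1.23 and 10.8 ± 5.12 CPM.

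Among members with other C-termini, TRIM37, a ligase of centrosomes and peroxisomes, had 28.4, 25.5 and 15.7 CPM on soft and 48.9, 22.1 and 15.9 CPM on stiff gels. The membrane-anchored TRIM13 and TRIM59 had 18.1 ± 2.17 against 15.8 ± 1.58 and 12.7 ± 1.72 against 13.0 ± 7.43 CPM. The neuronal ligase TRIM9, the 1 tested member of its class, had 3.13, 2.35 and 1.57 CPM on soft and 1.52, 2.22 and 1.20 CPM on stiff gels. The members nearest to TRIM31 in architecture, which also lack a C-terminal domain, gave overlapping groups. TRIM8, a regulator of cytokine signalling, had 5.63 ± 1.79 and 5.91 ± 1.67 CPM, and TRIM56, which acts on STING, had 3.36 ± 0.929 and 3.04 ± 1.23 CPM.

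TRIM proteins that go by other symbols gave 3 tested genes, with 0 called. PML, the organiser of nuclear bodies, had 76 ± 29.8 and 58.1 ± 24.5 CPM. The microtubule-bound MID1 had 14.2 ± 3.85 and 19.3 ± 4.03 CPM. MEFV (pyrin) was listed at 0.

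The listed E1 and E2 enzymes of the ubiquitin system spanned a wide range of levels. All 16 listed E1 and E2 genes were tested, 5 above 0 and 11 below, with a median of -0.06 and 0 called. The lowest were UBE2V1, at 4.25 ± 0.521 and 3.8 ± 1.0 CPM, and UBE2D1, at 5.02 ± 1.49 and 4.21 ± 1.28 CPM. The E1 enzyme UBA1 had 370 ± 85.2 and 278 ± 89.4 CPM. UBE2D3, of the E2 group used most by RING ligases, had 194 ± 29.9 and 189 ± 24.4 CPM, and UBE2N, which builds signalling chains, had 191 ± 22.5 and 181 ± 7.24 CPM.

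Replicate differences moved many members at once. Within pair 1, the log2 CPM difference of the 37 tested members fell with rising GC content of the transcript (Spearman rho -0.62 across members, beside -0.61 over 11003 genes). In pairs 2 and 3 rho was -0.02 and 0.20. Genes within a library share its depth and base composition, so these are descriptions of the libraries. AT-rich members such as TRIM22, TRIM33, TRIM24 and TRIM37 were higher on stiff gels in pair 1, by 1.83, 1.05, 0.86 and 0.78. GC-rich members such as TRIM47, TRIM28 and TRIM29 were lower there, by log2 differences of -1.22, -1.12 and -1.08. TRIM31, at 49.7% GC, sat in the middle of the GC range, and with GC and length offsets its log2 fold change was 2.13 (SE 0.40, adjusted p = 0.350 by edgeR) unpaired and 2.16 (SE 0.39, adjusted p = 0.0170 by edgeR) with the block.

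**Figure D4:**
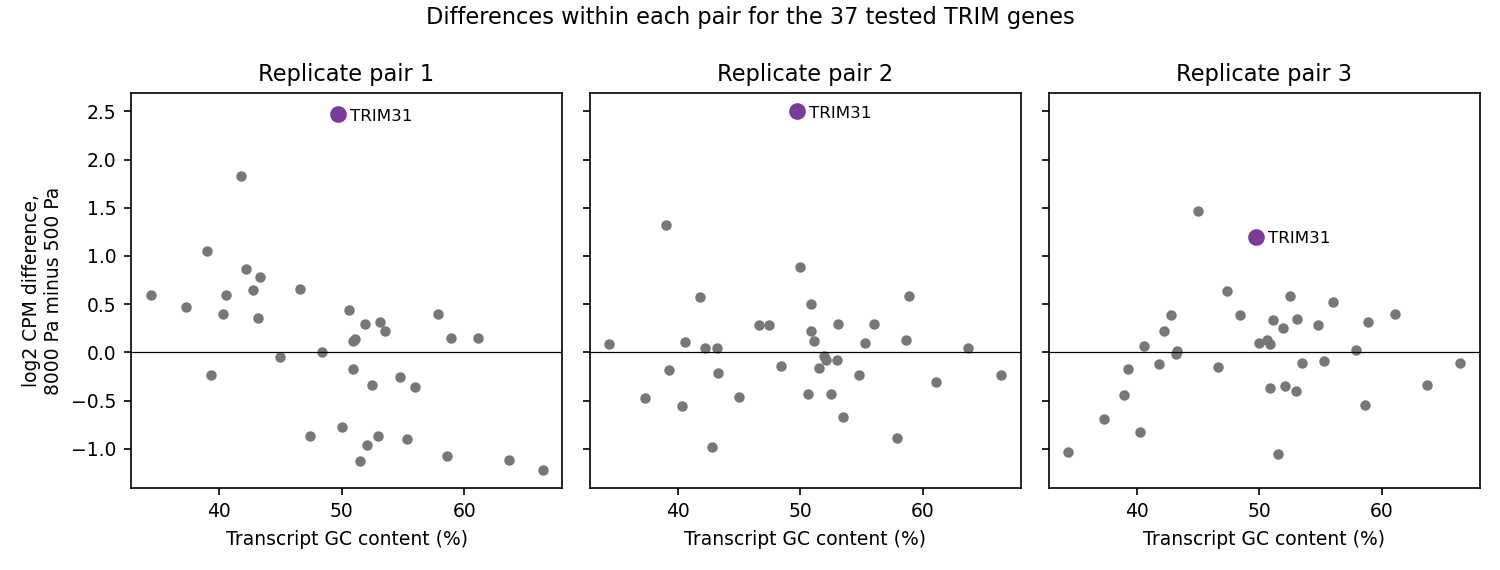
Log2 CPM difference (8000 Pa minus 500 Pa) within each replicate pair against transcript GC content (%) for the 37 tested TRIM genes, TRIM31 in purple. The downward slope in pair 1 (rho -0.62) is not seen in pairs 2 (-0.02) and 3 (0.20), and TRIM31 lies at 2.47, 2.50 and 1.20.

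TRIM31 sits in the class I end of the major histocompatibility complex beside TRIM40, TRIM10, TRIM15, TRIM26 and TRIM39. Of the 50 protein-coding genes listed within 1 Mb of it, 25 had 0 counts in all libraries, against 24.6% of all 18580 protein-coding genes and 21.7% on chromosome 6 beyond 4 Mb. Olfactory receptor genes, silent in most tissues, make up part of these zeros. But genes used in nearly every cell were also at or near 0. Within 1 Mb, TRIM39 and RPP21 had 0 counts and HLA-E 1 to 8, and farther off, within 4 Mb, DDX39B had 0 to 1 and RING1 0. TRIM27, a widely expressed member just over 1 Mb from TRIM31, had 0 to 3 counts. These genes are therefore only listed at 0 or near it, and whether TRIM31 and TRIM26 hold all of their reads was not tested. The sources used here do not say how reads that fit several places were counted, and its part in the TRIM31 difference was not tested.

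Among the neighbours, TRIM26, 81.6 kb away, had 6.43, 7.49 and 9.43 CPM on soft and 4.95, 9.19 and 13.6 CPM on stiff gels, with overlap (log2 fold change 0.25, SE 0.42). Of the 10 genes tested within 1 Mb besides TRIM31, 5 lay above 0 and 5 below, with a median of 0.02.

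**Figure D5:**
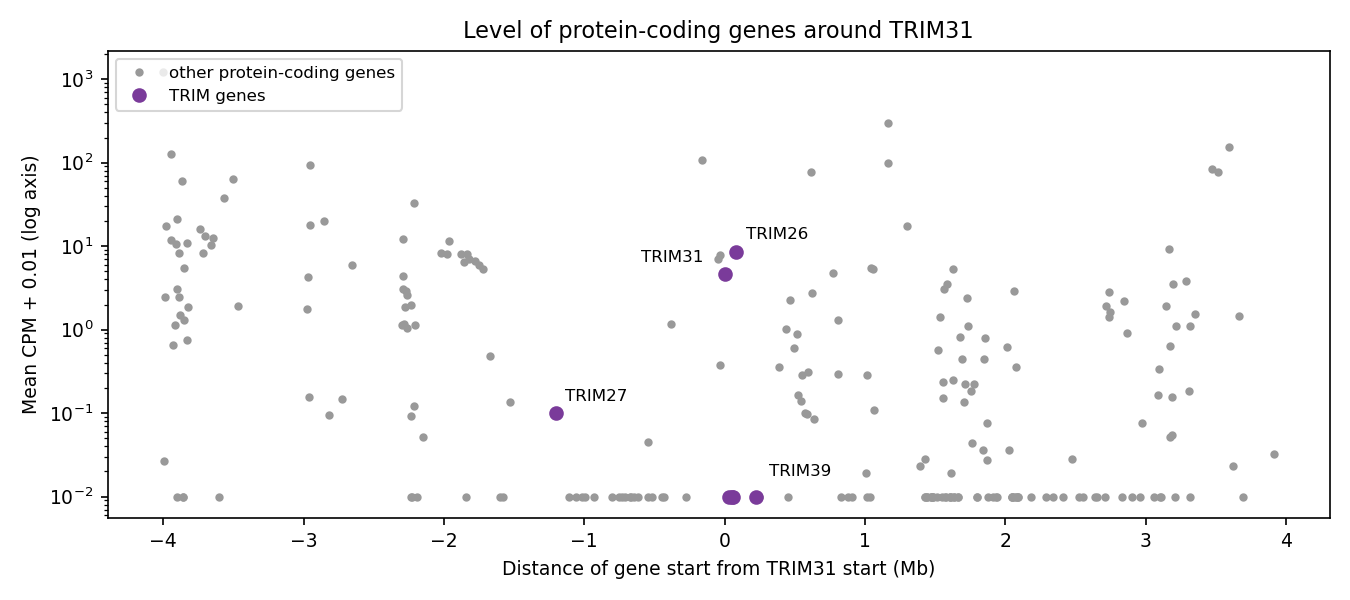
Mean CPM over 6 libraries plus 0.01 (log axis) of protein-coding genes by distance of their start from that of TRIM31 (Mb), TRIM genes in purple. Many genes lie on the floor of 0 counts, among them TRIM39, and TRIM31 and TRIM26 are above most of their neighbours.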

How the data were processed

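RNA sequencing of 6 libraries, 3 per stiffness, was used. The counts deposited by the authors are unnormalized whole numbers per gene symbol. Per the submitters' processing notes the tools were HISAT2 2.1.2, HTSeq 0.11.4 and the build GRCh38. The log2 values deposited by the authors are TMM-scaled per the file headers, present for 8593 genes and 23 members, and served only as a check: they differed by at most 0.116 from log2 CPM computed here (prior count 2, 7257 genes). For annotation, strandedness and multi-mapping rules: not given in the sources used here.

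Genes kept by filterByExpr (minimum count 10, total 15) numbered 11517. They were fitted with edgeR 4.0.16 (R 4.3.3), TMM scaling and the quasi-likelihood F test, with Benjamini-Hochberg adjustment over all tested genes at 0.05. The main design had stiffness alone and the alternative a replicate block. Same-numbered libraries deviated together (correlations 0.409, 0.184 and 0.516 across genes), all above 0.1, so the labels' numbers were taken as pairs. The highest correlation between unlike numbers, 0.199 for 500 Pa replicate 2 with 8000 Pa replicate 1, exceeded that of pair 2. With the block, 2 residual degrees of freedom remain and the prior is infinite, so its p-values rest on a spread trend shared by all genes. DESeq2 1.42.0 and limma-voom (limma 3.58.1) were alternatives, with other scalings, filters, GC and length offsets and left-out libraries. No 2 libraries agreed within sampling noise (chi-square per degree of freedom 11.0 or more). RPKM is CPM per kilobase of exon from GENCODE 29. The steps were tested on simulated data. Depth limits precision at low counts, and floors of 3 counts cover counting error only.

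Members and gene lists were chosen with earlier results of these data known, and the distance windows and promoter motifs after values were seen. Named were TRIM31, called members, the 6 highest and 6 lowest fold changes, the 8 highest RPKM, the 3 most abundant of each list and TRIM genes within 1 Mb of TRIM31. A few others were named after their values were seen. Values of 2 genes outside the family are not reported here.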

Additional observations from a re-analysis of the deposited data

How the results depend on the processing

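The number of TRIM genes past the threshold was 0 in the unpaired edgeR fit and 1, TRIM31, with the replicate block, in DESeq2, in DESeq2 with the replicate block and with GC and length offsets plus the replicate block. It was 0 under the other scalings, filters and limma-voom, and 0 to 1 with libraries or pairs left out. Over all 11517 tested genes, edgeR with the replicate block called 61 and unpaired DESeq2 called 7. The TRIM31 log2 fold change was 2.14, and 2.18 with the replicate block. It kept its direction in every setting run and ranged from 1.84 to 2.70 with libraries or pairs left out, reaching 2.62 without 500 Pa replicate 3. The median of the other members was 0.08, and 0.06 with the replicate block. It was 0.23 with library size alone, where the median of all genes moved to 0.17, and -0.05 to 0.14 with libraries or pairs left out, the lowest without 8000 Pa replicate 3. The cause of these shifts was not tested. TRIM31 minus the family median gave 1.90 and ranged from 1.69 to 2.16 with single libraries left out. The filter of 1 CPM in 3 libraries kept 11557 genes and so was no stricter than the main one. Among the other named members, 475 values under alternatives moved by less than the spread between replicates and 5 by more, with 0 calls gained. At these depths members with a few counts per library cannot show differences of modest size.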
